A study of Mus musculus with 8 samples.

Results

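Chromatin remodelling complexes are multi-subunit machines that use ATP to slide, eject or exchange nucleosomes. The BAF (SWI/SNF) complex is built around the ATPase SMARCA4 or SMARCA2, and the NuRD complex joins a CHD ATPase to histone deacetylases and a methyl-CpG-binding domain protein. Many of their positions can be filled by 1 of several related proteins, and the choice differs between cell types. In mouse embryonic stem cells BAF is known to be assembled around SMARCA4 and SMARCC1 and to lack SMARCA2, SMARCC2 and SMARCD3. The MBD3 form of NuRD is known there for its role in the exit from self-renewal.

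The genes described are those of the BAF, NuRD, ISWI and INO80 complexes together with the related CHD, SNF2, MBD, ARID and BET families. They were chosen by name, and 61 of the 17922 rows of the deposited gene table matched. Of these, 19 encode BAF subunits, 12 NuRD subunits, 3 ISWI and 5 INO80 subunits, 6 other CHD proteins, 4 other SNF2-type proteins, 4 other MBD proteins, 6 other ARID proteins and 2 BET proteins. The BET, other ARID and other MBD groups hold chromatin readers and DNA-binding proteins rather than remodelling ATPases or their subunits. The neuronal BAF gene Actl6b was not analysed here, since no row carried its symbol.

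The series followed mouse embryonic fibroblasts (MEFs) of strain C57BL/6 as they were converted into induced pluripotent stem cells (iPSCs). Each of the 4 stages used here had 1 long RNA library. The stages were MEFs (day 0), taken from fetuses at embryonic day 13.5 of tetO-OSKM mice and used at low passage, such cultures 3 and 6 days after 2 ug/ml doxycycline had been added (day 3, day 6), and iPSCs obtained from MEFs. All stages thus share the inducible OSKM cassette (Pou5f1, Sox2, Klf4 and Myc). Reprogramming took place in serum replacement medium with 1000 U/ml LIF and 3 uM CHIR99021, a GSK3 inhibitor. The medium of the MEFs before induction, the medium and doxycycline status of the iPSCs at harvest, the source of the doxycycline-responsive activator and the number of iPSC lines or animals were stated in none of the sources used here.

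Values are FPKM (fragments scaled by gene length and library size), which allow levels of different genes to be compared. Differences are on the log2(FPKM + 1) scale. Calls required a difference of 1 or more and 1 FPKM or more in the higher of the compared libraries. That difference is 2-fold in FPKM + 1 and more than 2-fold in FPKM itself, most of all at low levels. The 1.5-fold rule used below is likewise on FPKM + 1. With 1 library per stage no difference could be tested and none carries an error. As a scale, the robust SD of the difference over genes at 5 to 100 FPKM was 0.15 for day 3 against MEFs, 0.22 for day 6 against MEFs and 1.27 for iPSCs against MEFs. It holds noise and real differences together.

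The stage markers followed the labels. The summed level of 8 fibroblast markers was 3350, 3630, 4180 and 29.1 FPKM (MEFs, day 3, day 6 and iPSCs, the order kept throughout), and that of 8 pluripotent cell markers was 1.30, 4.83, 11.1 and 1890 FPKM. Most of the day 6 sum was Pou5f1 (8.56 FPKM) and Sox2 (2.03 FPKM), both genes of the OSKM cassette. No other listed pluripotent cell marker reached 1 FPKM before the iPSC stage. How much of this early RNA came from the cassette was not tested. All 8 fibroblast markers were lower and all 8 pluripotent cell markers higher in iPSCs than in MEFs. Summed proliferation markers (8 genes) stood at 263, 274, 342 and 1310 FPKM. Every comparison of iPSCs with MEFs is thus also one between libraries that differ in this list. The macrophage marker list (7 genes) summed to 73.6, 52.9, 57.9 and 51.4 FPKM, and its members went both ways. Of 6 compared, 4 were lower in iPSCs, among them Lyz2 (0.0298 against 52.9 FPKM in MEFs), and Laptm5 was higher (38.5 against 4.31 FPKM), while Ptprc and Emr1 were listed at 0 in iPSCs. The part of proliferation or of other cells in the results below was not tested. In bulk RNA, fewer cells of a type and less RNA per cell cannot be told apart.

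Nearly all members were expressed at every stage. Of the 61, 60 reached 1 FPKM in at least 1 library and 58 did so in all 4, and the other was Dpf3. The median member stood at 16.7, 17.5, 16.3 and 14.8 FPKM at the 4 stages, against 10.3, 10.4, 10.2 and 9.03 FPKM over all genes that reached 1 FPKM in any library. The highest member was Rbbp7 through day 6 (84.1, 86.3 and 89.7 FPKM) and Hells in iPSCs (508 FPKM).

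In iPSCs against MEFs, 11 of 59 compared members were higher (18.6%) and 7 were lower (11.9%). Over all 12937 compared genes 21.1% were higher and 25.0% lower, so the members were called no more often than genes at large. Their median difference was 0.28, against -0.045 over all genes. Rescaling each library to the same upper quartile shifted the median of all genes to 0.13, and the members' median relative to it stayed at 0.32. The higher members were Hells, Arid3b, Chd7, Mbd4, Actl6a, Mta3, Arid3a, Dpf2, Smarcd1, Rbbp4 and Dpf1. The lower members were Chd3, Smarca2, Smarcd3, Smarcc2, Arid5b, Mbd2 and Smarca1. At 1.5-fold, 18 members were higher (31.5% of all genes) and 11 lower (34.7%). With a pseudocount of 5 in place of 1, Arid3a, Smarcd1, Dpf1, Rbbp4 and Smarca1 were no longer called, and rescaling to the same upper quartile added Chd1, Rbbp7, Smarca5 and Smarcc1. Those nearest the threshold were Dpf1 (1.02) and Rbbp4 (1.03) inside it and Arid1b (-0.94), Smarca5 (0.91), Chd1 (0.90) and Rbbp7 (0.90) outside it.

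**Figure D1:**
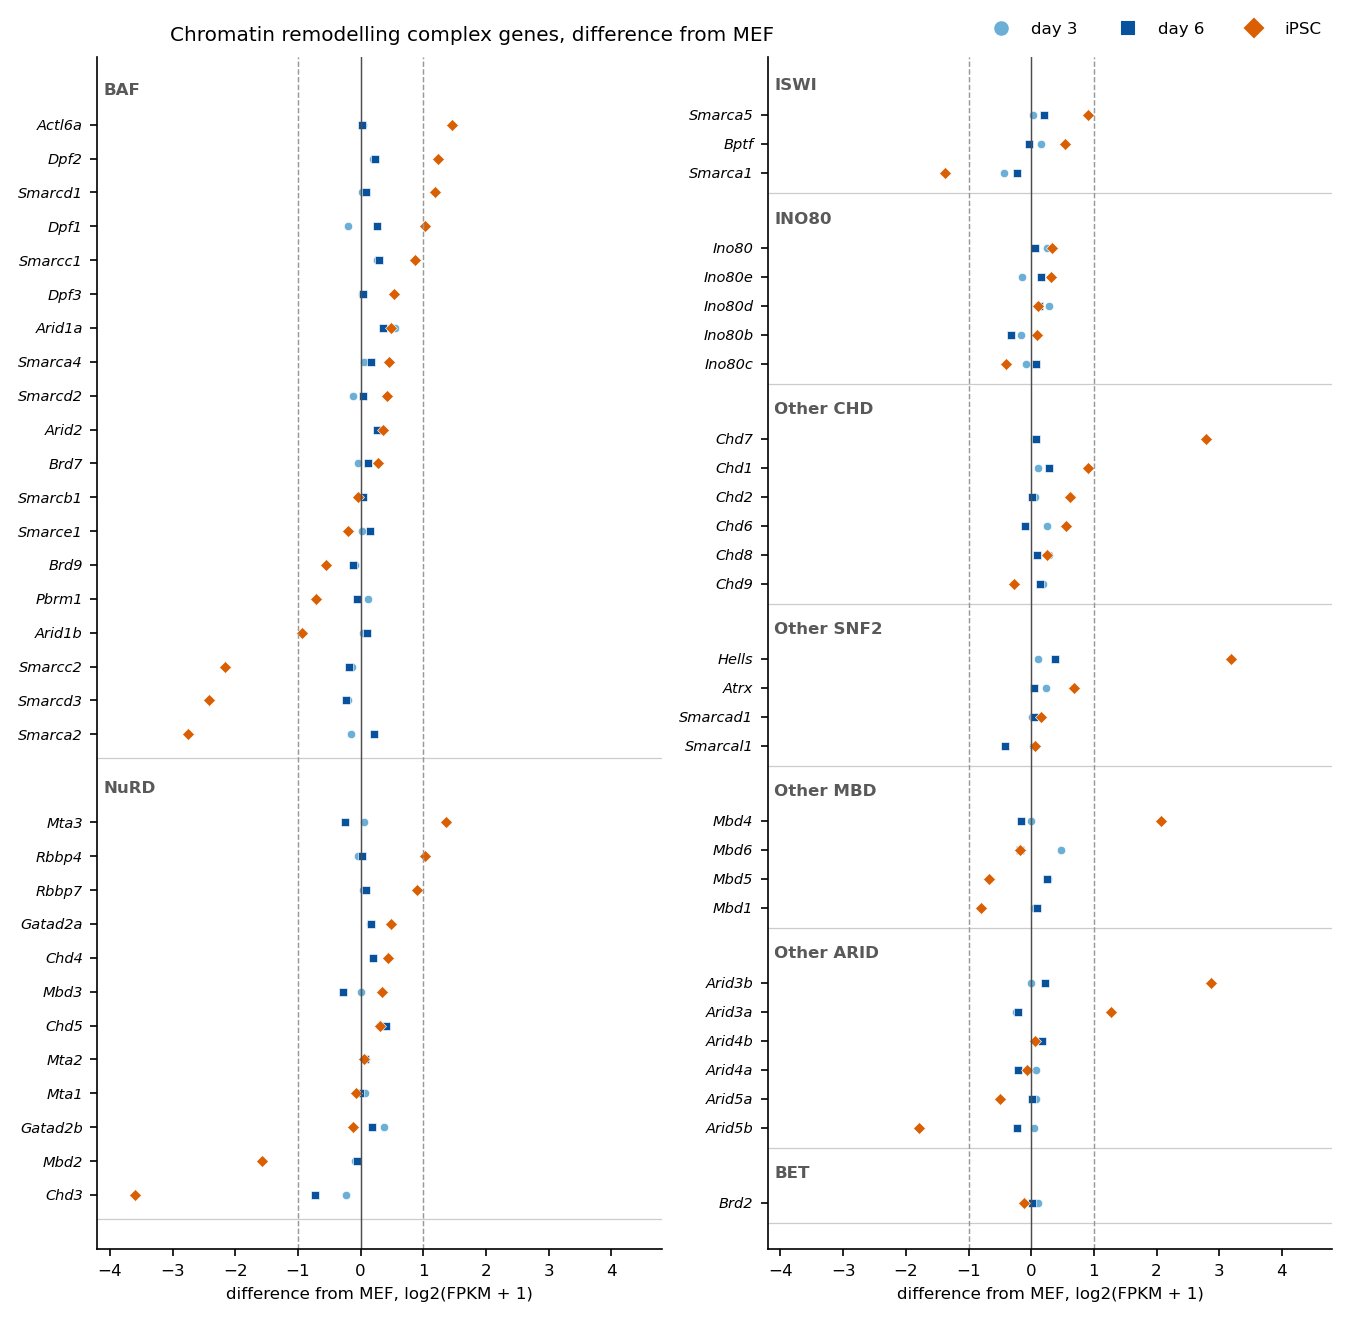
Difference from MEFs on the log2(FPKM + 1) scale (x axis) for 60 of the 61 genes (y axis), grouped by complex or family, with circles for day 3, squares for day 6 and diamonds for iPSCs. Dashed lines mark a difference of 1 in either direction. Day 3 and day 6 symbols lie between the dashed lines for every gene shown, while 18 of the iPSC symbols called by the rule lie on or beyond them.

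**Figure D2:**
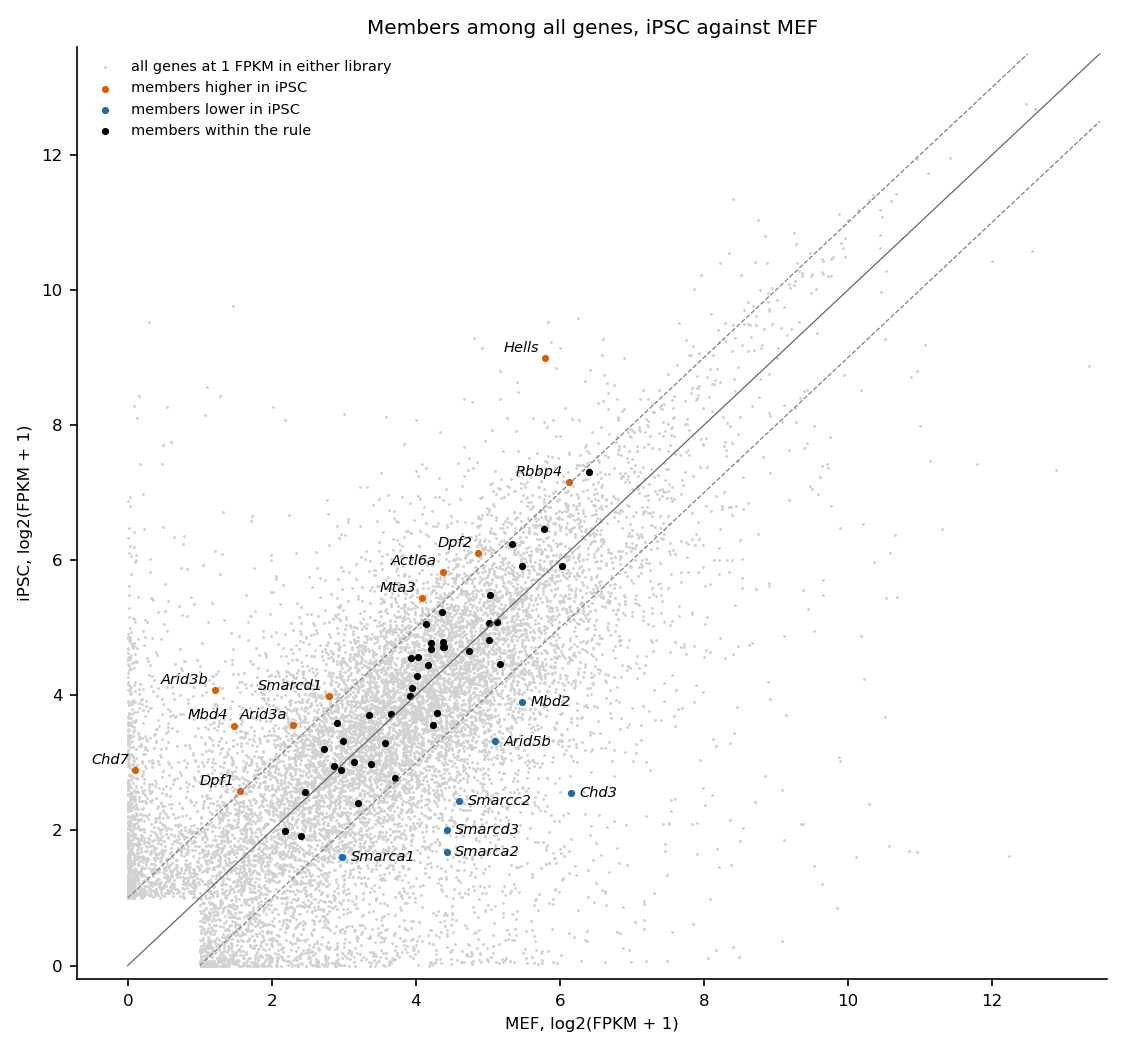
Level in iPSCs (y axis) against level in MEFs (x axis), both as log2(FPKM + 1), for all genes at 1 FPKM in either library (grey) and for the members (coloured by call, labelled where called). The solid line marks equal levels and the dashed lines a difference of 1; Hells lies far above and Chd3 far below the solid line.

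The early stages stayed close to MEFs. At day 3 and at day 6 against MEFs, and at day 6 against day 3, 0 of 58, 59 and 59 compared members passed the 2-fold rule in either direction. Over all genes 0.221%, 1.35% and 0.855% did so, which leaves little room for members to be called. At 1.5-fold, 1 member was higher at day 3 than in MEFs (1.13% of all genes were). At that fold 1 was lower at day 6 than in MEFs (3.29% of all genes), which was Chd3, and Mbd6 alone was lower when day 6 was set against day 3 (2.61%). All 18 members called in iPSCs against MEFs were within the rule at day 3 and day 6. Their day 6 difference from MEFs ranged from -18.3% to 25.2% of their iPSC difference, a negative share being a move the other way.

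Of the transcripts for the BAF ATPase, nearly all were of Smarca4 in iPSCs. Only RNA was measured here and below, so shares of transcripts are not the makeup of assembled complexes. Smarca2, the gene of the ATPase BRM, was at 20.6, 18.3, 23.9 and 2.20 FPKM at the 4 stages, a difference of -2.75 between iPSCs and MEFs (9.35-fold lower in iPSCs). Smarca4, the gene of the ATPase BRG1, was at 31.8, 33.1, 35.9 and 43.7 FPKM, within the rule at 0.45. The iPSC library alone was low for Smarca2, while Smarca4 was highest there by a small margin. Smarca4 thus made up 60.7%, 64.4%, 60.0% and 95.2% of the summed level of the pair at the 4 stages. The sum itself was 52.4, 51.4, 59.9 and 45.9 FPKM.

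The transcripts of the scaffold subunits also differed in makeup, with a reversal of order. SMARCC1 and SMARCC2 are the paired scaffold proteins on which BAF assembles. Smarcc2 was at 23.3, 21.0, 20.4 and 4.41 FPKM at the 4 stages and was 5.28-fold lower in iPSCs than in MEFs (difference -2.17). Smarcc1 was at 19.6, 23.6, 24.4 and 36.8 FPKM, with a difference of 0.87 that was within the rule as deposited and past it after rescaling to the same upper quartile or to the same sum. The share of Smarcc1 in the pair was 45.7%, 52.9%, 54.5% and 89.3% at the 4 stages. Smarcc2 was the higher of the pair only in MEFs, although the 3 early ratios differ little.

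Among the BAF60 subunits, which link the complex to transcription factors, Smarcd3 transcripts made up less of the family in iPSCs and those of Smarcd1 and Smarcd2 more. Smarcd3, known for its role in heart and skeletal muscle, was at 20.6, 17.8, 17.3 and 3.02 FPKM (difference -2.43 in iPSCs against MEFs). Smarcd1 was at 5.96, 6.08, 6.35 and 14.8 FPKM, a difference of 1.19. Smarcd2 was at 19.7, 18.0, 20.2 and 26.6 FPKM, within the rule. In the summed level of the 3 genes, Smarcd3 held 6.79% in iPSCs against 44.5% in MEFs, with no early stage under 39.4%. Smarcd1 held 33.3% in iPSCs against 12.9% in MEFs and Smarcd2 59.9% against 42.6%.

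The value of Smarcd3 has a limit of its own. Its annotated span overlaps that of Chpf2, a gene of chondroitin synthesis, and the library kit named in the labels' protocols does not mark strand. Chpf2 was at 49.4, 46.6, 46.9 and 4.18 FPKM, so it was low in iPSCs together with Smarcd3, and reads from the shared stretch cannot be told apart. The 7 of 8 listed muscle markers in the table summed to 31.2 FPKM in iPSCs against 1.02 in MEFs. Most of the iPSC sum was Des (24.7 FPKM). Any part of muscle cells in the level of Smarcd3 was not tested.

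For these 3 positions the summed level differed little while its makeup changed. In iPSCs the sums were 45.9 FPKM for the ATPase pair, 41.2 for the Smarcc pair and 44.5 for the Smarcd genes, against 52.4, 43.0 and 46.3 FPKM in MEFs. The sums were thus 1.14-fold, 1.04-fold and 1.04-fold lower in iPSCs. Other core subunits were also level, with 1 exception. Smarcb1, the core subunit lost in rhabdoid tumours, was at 34.0, 33.0, 34.8 and 32.9 FPKM and Smarce1, a DNA-binding subunit, at 31.2, 31.7, 34.6 and 27.1 FPKM. Actl6a, an actin-related subunit shared with INO80 and TIP60, was that exception at 19.9, 20.4, 20.2 and 56.0 FPKM (difference 1.45).

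The DNA upstream of the 3 lower genes (Smarca2, Smarcc2 and Smarcd3) and of 1 alternative to each is shown so that their start sites can be read side by side. The 200 bases before the RefSeq start are given 5′ to 3′ on the gene's strand (build GRCm38.p6), with GC boxes (GGGCGG on either strand, the letters bound by SP1-type factors) in capitals. Smarca4 lies at chr9:21615969-21616168, Smarca2 at chr19:26604960-26605159, Smarcc1 at chr9:110131824-110132023, Smarcc2 at chr10:128459036-128459235 and Smarcd1 at chr15:99702087-99702286, all on the plus strand. Smarcd3 lies at chr5:24602003-24602202 on the minus strand.
Smarca4: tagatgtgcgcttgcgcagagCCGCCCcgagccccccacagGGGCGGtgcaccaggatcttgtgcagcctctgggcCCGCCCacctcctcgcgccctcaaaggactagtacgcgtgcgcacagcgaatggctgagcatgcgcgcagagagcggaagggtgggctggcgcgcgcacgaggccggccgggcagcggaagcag
Smarca2: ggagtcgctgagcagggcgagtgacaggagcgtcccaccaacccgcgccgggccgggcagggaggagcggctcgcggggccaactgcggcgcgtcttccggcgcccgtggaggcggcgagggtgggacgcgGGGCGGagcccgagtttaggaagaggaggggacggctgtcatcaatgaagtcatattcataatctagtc
Smarcc1: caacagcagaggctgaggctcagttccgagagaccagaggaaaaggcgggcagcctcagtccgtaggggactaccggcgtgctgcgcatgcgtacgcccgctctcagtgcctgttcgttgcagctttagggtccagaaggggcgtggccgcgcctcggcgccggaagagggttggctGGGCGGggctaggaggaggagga
Smarcc2: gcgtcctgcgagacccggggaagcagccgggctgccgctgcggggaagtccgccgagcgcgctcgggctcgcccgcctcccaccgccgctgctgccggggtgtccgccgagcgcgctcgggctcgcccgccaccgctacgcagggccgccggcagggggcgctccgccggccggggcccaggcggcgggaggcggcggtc
Smarcd1: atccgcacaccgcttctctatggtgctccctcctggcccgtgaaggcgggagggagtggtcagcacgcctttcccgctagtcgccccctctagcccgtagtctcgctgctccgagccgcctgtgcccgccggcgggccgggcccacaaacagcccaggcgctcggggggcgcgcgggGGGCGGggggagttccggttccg
Smarcd3: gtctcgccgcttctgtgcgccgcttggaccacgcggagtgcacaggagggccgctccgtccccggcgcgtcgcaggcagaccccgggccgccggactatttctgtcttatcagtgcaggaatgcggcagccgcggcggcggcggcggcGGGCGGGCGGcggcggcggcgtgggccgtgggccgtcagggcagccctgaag

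All 6 stretches are rich in CpG, the dinucleotide that is methylated in mammals, with 22 in Smarca4, 23 in Smarca2, 17 in Smarcc1, 35 in Smarcc2, 23 in Smarcd1 and 31 in Smarcd3. The members that were high and low in iPSCs did not separate by this count. Windows of 250 bases before to 50 after the start were found for 47 of the 61 members (61 windows). The median window held 25 CpG both for all members and for the 8 higher members that had one (9 windows, range 20 to 39). It held 29 for the 5 lower members (range 7 to 48), and 7 over all 32851 windows, which include noncoding genes. A GC box stood in 82.0% of member windows and in 35.7% of all windows, and in 7 of the 9 windows of higher and 4 of the 5 of lower members. The E2F-type letters TTTCCCGC or TTTGGCGC stood in 4 of 61 member windows, those of Arid1a, Brd7, Smarcd1 and Hells, and in 1.56% of all windows, searched on both strands.

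Among the accessory BAF subunits the ARID1 pair reversed its order, and the PHD finger subunit Dpf2 rose without a change in the makeup of its family. ARID1A and ARID1B are the alternative DNA-binding subunits of canonical BAF. Arid1b was at 12.2, 12.6, 13.1 and 5.88 FPKM, a difference of -0.94 in iPSCs against MEFs and of -1.04 against day 6. The latter passed the rule, but not after rescaling to the same upper quartile. Arid1a was at 5.64, 8.67, 7.46 and 8.25 FPKM. Its share of the pair was 31.7%, 40.8%, 36.3% and 58.4%. At day 3 the difference of Arid1a from MEFs was 0.54, above the central 95% of genes of middling level (-0.33 to 0.39). It did not pass the 1.5-fold rule, which is on FPKM + 1.

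The PHD finger subunits read modified histone H3 tails. Dpf2 was at 28.2, 32.6, 33.3 and 67.7 FPKM, a difference of 1.23 in iPSCs against MEFs. It held between 92.5% and 95.3% of the summed Dpf level at every stage. Dpf1, known from neuronal BAF, was at 1.96, 1.58, 2.54 and 5.01 FPKM and passed the rule by little. Among the 6 of 8 listed neuron markers in the table, the sums were 34.8, 37.2, 57.2 and 111 FPKM, mostly from Stmn2. Of 3 compared, 2 were higher in iPSCs than in MEFs, Stmn2 (97.6 against 29.1 FPKM) and Elavl3 (2.09 against 0.0150 FPKM). Tubb3 was at 5.62, 9.91, 19.1 and 9.82 FPKM and passed the rule in day 6 against MEFs, and Rbfox3 and Dcx were at 0.132 and 0.0159 FPKM in iPSCs. Dpf3 was at 0.443 FPKM in iPSCs and was listed at 0 in MEFs.

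The subunits that distinguish the other BAF forms stayed within the rule. PBAF is marked by ARID2, PBRM1 and BRD7, and the non-canonical complex by BRD9. Pbrm1 was at 35.1, 38.1, 33.8 and 21.1 FPKM, Arid2 at 9.20, 11.6, 11.2 and 12.1 FPKM and Brd7 at 17.0, 16.4, 18.5 and 20.8 FPKM. Brd9 was at 18.7, 17.5, 17.0 and 12.4 FPKM, and it stood above Brd7 in MEFs and below it in iPSCs. Of 9 other BAF subunits and partners found in the table, 0 of 7 compared were past the rule in iPSCs against MEFs. Over all genes 21.1% were higher and 25.0% lower. Bcl7a came nearest at 4.72 FPKM in iPSCs against 1.87 in MEFs (0.99), and Ss18 was at 32.4 against 26.8 FPKM.

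**Figure D3:**
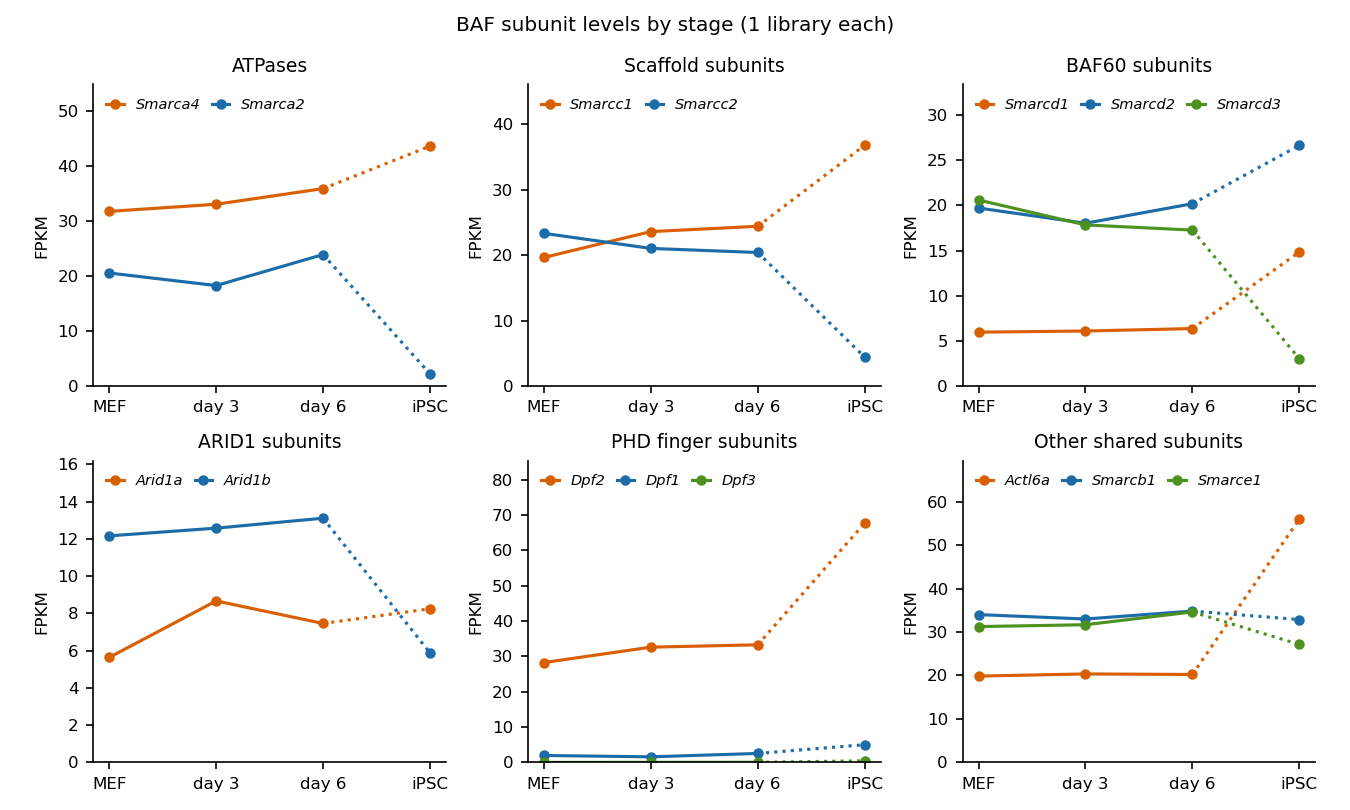
FPKM (y axis, from 0) of BAF subunits at the 4 stages (x axis), 1 point per library; each panel holds genes that fill the same position, except the last, which holds shared subunits. The dotted stretch joins day 6 to iPSCs, which are not a time point. Smarca2, Smarcc2, Smarcd3 and Arid1b are lowest in iPSCs, and Actl6a, Dpf2 and Smarcd1 are highest there.

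In NuRD the ATPase Chd3 showed the largest negative difference of all members. CHD3 and CHD4 are alternative ATPases of the complex, and CHD5 is the form of neurons and testis. Chd3 was at 70.5, 60.1, 42.0 and 4.89 FPKM, 14.4-fold lower in iPSCs than in MEFs (difference -3.60). It was the only member below the central 95% of middling genes at day 6 against MEFs, at -0.73 where the range was -0.60 to 0.49. Chd4 was at 43.5, 50.3, 50.1 and 59.3 FPKM and within the rule. Chd3 was above Chd4 in MEFs and at day 3 and below it at day 6 and in iPSCs, where Chd4 made up 91.1% of the summed level of the 3 ATPase genes, against 38.0% in MEFs.

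Chd5 stayed near the minimum, at 0.516, 0.860, 1.00 and 0.879 FPKM. The NuRD ATPase sum was lower in iPSCs by more than the BAF sums, at 65.1 FPKM against 115 in MEFs (1.76-fold).

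Of the methyl-CpG-binding subunits, Mbd2 had the higher transcript level through day 6 and Mbd3 in iPSCs. MBD2 and MBD3 form separate NuRD complexes, and only MBD2 binds methylated DNA strongly. Mbd2 was at 43.7, 41.1, 42.0 and 14.0 FPKM, a difference of -1.58 in iPSCs against MEFs. Mbd3 was at 19.8, 19.9, 16.2 and 25.2 FPKM, within the rule at 0.33. Mbd3 held 31.2%, 32.7%, 27.8% and 64.4% of the pair, so it held the larger share in iPSCs alone and its smallest share at day 6. The sum was 39.2 FPKM in iPSCs against 63.5 in MEFs.

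Of the MTA subunits, which hold the deacetylases, only Mta3 passed the rule. Mta3 was at 16.0, 16.6, 13.3 and 42.6 FPKM, 2.66-fold higher in iPSCs than in MEFs (difference 1.36). Mta1 (25.7, 27.1, 25.4 and 24.4 FPKM) and Mta2 (31.5, 33.4, 33.1 and 32.6 FPKM) differed by -0.077 and 0.047. Mta3 was the lowest of the 3 through day 6 and the highest in iPSCs, with 42.8% of the sum against 21.9% in MEFs.

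The remaining NuRD pairs kept their order. GATAD2A and GATAD2B bridge the MBD subunit to the ATPase. Gatad2a was at 17.6, 19.5, 19.8 and 24.9 FPKM and Gatad2b at 7.86, 10.4, 9.06 and 7.11 FPKM. Gatad2a held 69.1%, 65.2%, 68.6% and 77.8% of the pair, a difference in log2 ratio of 0.61 between iPSCs and MEFs that was within the rule. RBBP4 and RBBP7 are histone-binding proteins that NuRD shares with polycomb and chromatin assembly complexes. Rbbp4 was at 68.9, 67.2, 70.2 and 142 FPKM (difference 1.03) and Rbbp7 at 84.1, 86.3, 89.7 and 157 FPKM (0.90). They moved side by side, with Rbbp4 between 43.8% and 47.4% of the pair at all stages, and their summed level was 1.95-fold higher in iPSCs than in MEFs. Proliferation markers moved the same way, as given above. Rbbp4 overlaps Sync, which went the other way at 22.1, 19.4, 12.3 and 1.18 FPKM.

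Among 9 NuRD deacetylases and partners, 3 were higher in iPSCs and 0 were lower (21.1% and 25.0% of all genes). They were Sall4 (54.5 against 0.0307 FPKM) and Sall1 (7.51 against 0.0131), zinc finger proteins that recruit NuRD, and Zmynd8 (80.9 against 17.0), a histone reader. The deacetylase genes Hdac1 (34.1 against 18.7 FPKM) and Hdac2 (71.9 against 50.1) were within the rule.

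**Figure D4:**
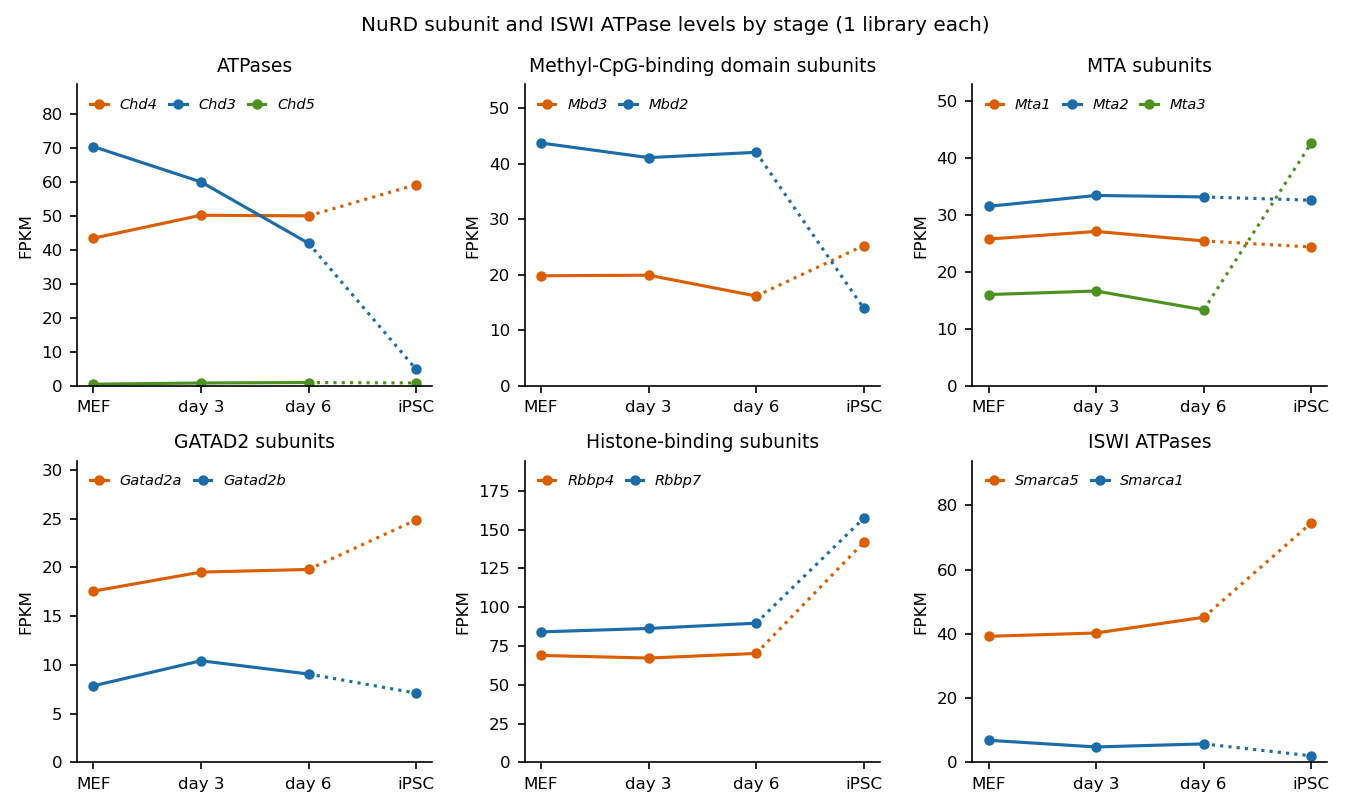
FPKM (y axis, from 0) of NuRD subunits and, in the last panel, of the ISWI ATPases at the 4 stages (x axis), 1 point per library, with a dotted stretch between day 6 and iPSCs. Chd3 is below Chd4 from day 6 on, Mbd2 falls below Mbd3 in iPSCs alone and Mta3 is above Mta1 and Mta2 in iPSCs alone.

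Alternative subunits were also compared by the ratio of their levels within a library, which changes little with how libraries are scaled. Of 20 pairs listed, 19 could be compared, all but Actl6a with Actl6b. The log2 ratio in iPSCs differed from that in MEFs by at least 1 in 10 of the 19. These were 5 of 10 BAF pairs, 4 of 8 NuRD pairs and the 1 ISWI pair. Over all pairs of any 2 compared genes 62.1% differed by as much, so the listed pairs did so no more often than gene pairs at large. Pairs share genes, since Smarcd3 is in 2 of them and Mta3 in 2, so they do not count as separate events. In 8 of the 10 the higher gene in iPSCs was the lower one in MEFs. The exceptions were Smarca4 with Smarca2 and Smarca5 with Smarca1, whose first gene led throughout. The share of reversed order over all gene pairs was not counted, so the 8 cannot be set against gene pairs at large. Some were near equal in MEFs, with ratios of 0.957 for Smarcd2 to Smarcd3 and 0.842 for Smarcc1 to Smarcc2. Others were further apart, such as Smarcd1 to Smarcd3 at 0.289.

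The differences in log2 ratio between iPSCs and MEFs were 4.04 for Chd4 to Chd3, 3.61 for Smarcd1 to Smarcd3, 3.20 for Smarca4 to Smarca2 and 3.04 for Smarcc1 to Smarcc2. They were 1.91 for Mbd3 to Mbd2, 1.41 for Arid1a to Arid1b and -1.43 for Mta1 to Mta3. By day 6 the ratio of Chd4 to Chd3 had moved by 0.93 from its MEF value, that of Smarcc1 to Smarcc2 by 0.49 and that of Smarcd1 to Smarcd3 by 0.32. Smarca4 to Smarca2 stood at -0.037 and Mbd3 to Mbd2 at -0.22 from MEFs at day 6. The pairs thus differed in how far they had gone by day 6, in single libraries.

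**Figure D5:**
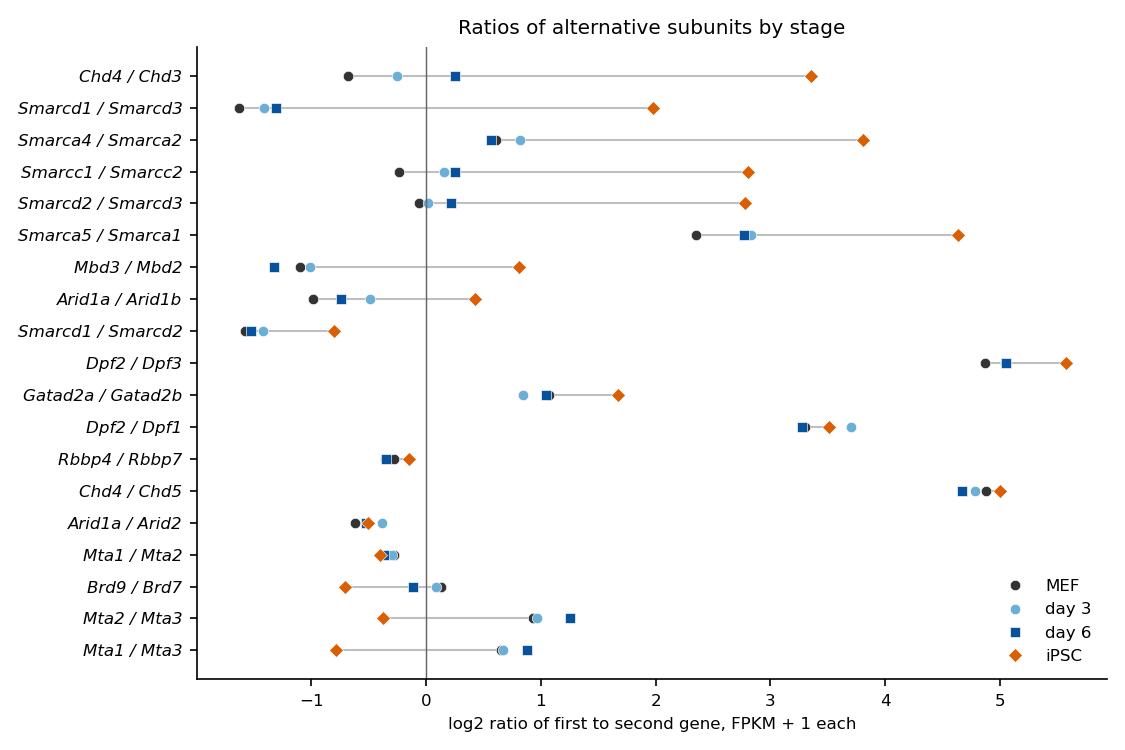
Log2 ratio of the first to the second gene of each pair, FPKM + 1 each (x axis), for 19 pairs (y axis), with a black circle for MEFs, a light blue circle for day 3, a blue square for day 6 and an orange diamond for iPSCs. The vertical line marks equal levels. The iPSC symbol of Chd4 and Chd3 stands at 3.36 and the MEF symbol at -0.68, with the day 6 symbol across the line at 0.25.

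In the ISWI family, Smarca5 and Smarca1 are alternative ATPases that space nucleosomes. Smarca1 was at 6.89, 4.81, 5.77 and 2.04 FPKM, a difference of -1.37 in iPSCs against MEFs. At day 3 it was the only member below the central 95% of middling genes, at -0.44. Smarca5, whose product is known to be needed in early embryos, was at 39.2, 40.3, 45.2 and 74.5 FPKM (0.91). Bptf, the large subunit of NURF, was at 15.3, 17.2, 14.9 and 22.7 FPKM. Pseudogenes of Smarca5 and Smarce1 are annotated, and reads could be shared with them.

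The 5 INO80 genes of the rule were level across stages. INO80 moves nucleosomes at promoters and replication forks and exchanges histone variants. Its ATPase gene Ino80 was at 6.95, 8.48, 7.32 and 9.03 FPKM, and differences of the 5 between iPSCs and MEFs ran from -0.40 (Ino80c) to 0.34 (Ino80). Of 9 further subunits and partners, 4 were higher in iPSCs against MEFs (21.1% of all genes) and 0 lower (25.0%), and against day 6 2 were higher (20.4%). The AAA+ ATPase gene Ruvbl2 was at 165 FPKM against 16.6 in MEFs, its partner Ruvbl1 at 34.1 against 13.3, Uchl5 at 15.2 against 6.35 and Actr5 at 7.36 against 3.03.

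On the log2(FPKM + 1) scale Hells had the largest positive difference among the members. As plain FPKM ratios of iPSCs to MEFs, Chd7 (87.0-fold) and Arid3b (12.2-fold) stood above it, from low levels in MEFs. HELLS (LSH) is an SNF2-type remodeller needed for DNA methylation at repeats, and it works with CDCA7. Hells was at 54.6, 59.0, 71.3 and 508 FPKM, 9.30-fold higher in iPSCs than in MEFs (difference 3.19). It was already among the higher members at the early stages, well above the member median. Its partner Cdca7 was at 2.98, 4.25, 5.17 and 66.4 FPKM and Uhrf1, a factor of maintenance methylation, at 12.2, 12.8, 16.9 and 94.7 FPKM. Top2a, the proliferation marker with the largest difference (2.90), was at 60.8, 64.7, 82.9 and 460 FPKM. The list was higher in iPSCs too, but its median difference of 2.27 was below that of Hells. Any part of proliferation in the level of Hells was not tested.

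The other SNF2-type genes were within the rule. Atrx, which places histone H3.3 at repeats together with DAXX, was at 54.2, 64.1, 55.8 and 87.3 FPKM, and Daxx at 10.7, 10.5, 9.09 and 22.0 FPKM. Smarcad1, a remodeller active at repair sites, was at 14.5, 14.6, 15.0 and 16.2 FPKM. Smarcal1, an annealing helicase at stalled forks, was at 11.6, 11.8, 8.45 and 12.2 FPKM, lowest at day 6.

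Among the other CHD genes Chd7 alone passed the rule. CHD7 binds enhancers and is mutated in CHARGE syndrome. Chd7 was at 0.0743, 0.108, 0.136 and 6.46 FPKM, a difference of 2.80 in iPSCs against MEFs. Chd1, whose product is known to keep the chromatin of embryonic stem cells open, was at 16.7, 18.1, 20.6 and 32.1 FPKM (0.90). Chd2, Chd6, Chd8 and Chd9 lay between 8.86 and 26.3 FPKM in MEFs and iPSCs, with differences of 0.62, 0.55, 0.26 and -0.27.

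Readers and DNA-binding members included some of the larger differences. Arid3b, a factor that binds AT-rich DNA, was at 1.31, 1.29, 1.70 and 15.9 FPKM (difference 2.88) and its relative Arid3a at 3.92, 3.17, 3.24 and 10.8 FPKM (1.27). Arid5b, a partner of a histone demethylase, went the other way at 33.3, 34.6, 28.5 and 8.97 FPKM (-1.78). Mbd4, the gene of a DNA glycosylase that repairs deaminated methylcytosine, was at 1.78, 1.76, 1.48 and 10.7 FPKM (2.08). Its span overlaps that of Ift122 by only 22 bases. Arid4a, Arid4b and Arid5a, and Mbd1, Mbd5 and Mbd6, were within the rule with differences from -0.79 (Mbd1) to 0.063 (Arid4b).

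Brd2, the gene of a BET protein that binds acetylated histones, was at 64.4, 69.3, 64.7 and 59.4 FPKM. It was similar in all 4 libraries and within the rule in every comparison.

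Against day 6 in place of MEFs, 10 members were higher (20.4% of all genes were) and 8 lower (23.4%) in iPSCs, of 60 compared. At 1.5-fold, 18 were higher (31.2%) and 11 lower (33.4%). The 7 lower members of the MEF comparison were all among the 8, with Arid1b added, and 10 of the 11 higher ones were called again, all but Dpf1. Arid1b was no longer called with a pseudocount of 5 or after rescaling to the same upper quartile. The comparisons share the iPSC library. Chd3 was at 4.89 FPKM in iPSCs against 42.0 at day 6 (-2.87), Smarca2 at 2.20 against 23.9 (-2.96) and Hells at 508 against 71.3 (2.82).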

How the data were processed

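Long RNA libraries depleted of ribosomal RNA were sequenced at 4 stages with 1 library each, per the labels' protocols; the small RNA libraries of the series were not used here. The deposited table gives FPKM per gene and stage, computed by the authors, per the file headers. HISAT2, Cufflinks and build mm9 are named, without versions, in the submitters' processing notes. Gene models, strand setting, filters and pooling were stated in none of the sources used here.

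Depth is not stated. The ratio of the lowest values (under 0.06 FPKM) gave a rough estimate of fragment numbers relative to the MEF library. It was 0.651, 1.07 and 1.04 for the day 3, day 6 and iPSC libraries. By this estimate day 3 had the fewest fragments, and precision itself was not measured.

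Genes were chosen by symbol (61 rows, all 61 identifiers matching a reference name table, none repeated), and groups, pairs, partners and markers were lists written by hand. Members and lists were chosen with earlier results of these data known. All members could be named, with full values for those past the rule or in a pair; of partners and markers, those past the rule with the largest differences, and any others named were picked after their values were seen. A pseudocount of 1, a minimum of 1 FPKM and a log2 difference of 1 defined a call, counted over all genes, and for ratios over all pairs of compared genes, as background. Alternatives changed the pseudocount, minimum, scaling, threshold and member set. Gene spans of 34 members overlap another gene in GRCm38, 11 of them a protein-coding one, and reads there could be shared. The values of 1 member are not reported here. Promoter windows are RefSeq's (GRCm38.p6). Python 3.11.15, pandas 2.3.3 and numpy 2.4.6 were used.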

Additional observations from a re-analysis of the deposited data

How the results depend on the processing

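Each stage had 1 library, so no call has a replicate check, and no paired analysis was possible because there was nothing to pair or leave out. The 1 FPKM minimum does not enter the difference of a single gene. Of 149 recomputed counts and medians, 136 moved by less than 1.5-fold. Many of these were early counts that stayed at 0 or medians near 0, which could hardly move by that much. No called member changed direction, but alternatives of this size could hardly reverse a call. Raising the pseudocount to 5 left 7 of the 11 members higher in iPSCs than in MEFs, without Arid3a, Smarcd1, Dpf1 and Rbbp4, and also lost Smarca1 among the lower. A log2 difference of 2 gave 4 higher and 4 lower (main 11 and 7), and 1.5-fold gave 18 and 11. In iPSCs against day 6 (10 and 8), a pseudocount of 5 gave 6 higher, a log2 difference of 2 gave 4 and 3, and 1.5-fold gave 18 higher. In the early comparisons, at 0 otherwise, 1.5-fold gave 1 higher at day 3 against MEFs, 1 lower at day 6 against MEFs and 1 lower at day 6 against day 3. Of the 10 pairs past the rule, 6 stayed past a log2 difference of 2. The same upper quartile gave 15 higher and 7 lower members in iPSCs against MEFs, adding Chd1, Rbbp7, Smarca5 and Smarcc1. Of 305 differences of single members, 294 moved by less than 1.5-fold, and the 11 that moved more belonged to 8 genes, and 10 of the 11 arose under another pseudocount. With a pseudocount of 5 the difference was -2.93 for Chd3, -1.83 for Smarca2, -1.67 for Smarcd3, 1.18 for Chd7, 1.73 for Arid3b and 1.22 for Mbd4. With a pseudocount of 0.1 it was 5.23 for Chd7, 3.51 for Arid3b and 3.215 for Hells. After rescaling to the same sum it was 3.77 for Chd7 and 3.36 for Hells. Which member had the largest positive difference thus depended on these settings.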

Other observations

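The SRCAP and TIP60 complexes, which exchange the histone variant H2A.Z and acetylate histones, were mostly level. Of 15 genes 2 stood higher in iPSCs and 0 lower than in MEFs (21.1% and 25.0% of all genes). The higher ones were Brd8 (58.5 against 22.3 FPKM), a bromodomain subunit, and Actr6 (12.4 against 5.20 FPKM), an actin-related subunit. At day 3 against MEFs the ATPase genes Ep400 (21.3 against 13.3 FPKM, difference 0.64) and Srcap (12.6 against 7.98 FPKM, difference 0.60) stood above the central range of genes of middling level, as did Arid1a, and Kat5, the TIP60 acetyltransferase gene, stood below it (12.6 against 17.0 FPKM, difference -0.41). At day 6 Ep400 was at 17.5, Srcap at 10.7 and Kat5 at 13.8 FPKM.

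Of 9 ISWI partners 2 passed the rule in iPSCs against MEFs, both higher (21.1% of all genes were higher and 25.0% lower). Cecr2, a partner known from neural tube closure, was at 13.7 FPKM in iPSCs against 0.0162 in MEFs, and Baz2a, the large subunit of the nucleolar complex NoRC, at 24.4 against 6.61 FPKM. The BET relative Brdt, known from testis, was at 3.60 FPKM in iPSCs against 0.475 in MEFs. Over all 55 compared partners of the remodelling complexes, 15 were higher in iPSCs and 0 lower, which is 27.3% against 21.1% of all genes for the higher side and none against 25.0% for the lower side. Whether this differs from genes at large was not tested.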
